A study of Mus musculus with 8 samples.

Results

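Neurexins, neurexophilins, neuroligins, cerebellins and C1q-like proteins were followed in embryonic mouse sympathetic ganglia in which *Isl1*, a LIM homeodomain transcription factor gene of peripheral neurons, was deleted or reduced. The set was 9 genes listed by symbol, *Nrxn2*, *Nrxn3*, *Nlgn1*, *Nlgn2*, *Nlgn3*, *Nxph1*, *Nxph4*, *Cbln2* and *C1ql1*, read from tables of 13506 genes at embryonic day 11.5 (E11.5) and 13413 genes at E14.5. Of the 9, 8 had a row at E11.5 and 7 at E14.5. *Nlgn1* had a row at E11.5 only, and *Nrxn3* had a row at neither stage and was not analysed here.

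The E11.5 comparison set *Isl1* conditional knockout (CKO) ganglia, of genotype *Wnt1-Cre;Isl1* f/f and given as Isl1-/- in the sample labels, against control ganglia, of genotype *Wnt1-Cre;Isl1* +/+ and labelled wild type. Both carried the *Wnt1-Cre* driver, which recombines in neural crest lineages, and a *Rosa26-tdTomato* reporter that guided the dissection. The E14.5 comparison set *Isl1* hypomorphic ganglia, of genotype *Isl1* f-neo/f-neo and labelled as an *Isl1* mutation, against wildtype ganglia, and fluorescence-guided dissection is described for the E11.5 embryos only. Each of the 4 groups had 2 libraries, each from pooled ganglia of about 10 or more embryos, and the 2 libraries were combined by the authors into 1 value per gene and genotype.

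Values are FPKM, fragments per kilobase of transcript scaled to the mapped fragments of the library, so that levels can be set side by side between genes of different length. With 1 combined value per genotype and no read numbers, neither the depth nor the spread between libraries is known, and no difference below was tested here or has a replicate check. Differences are given as log2 ratios of mutant to control on the FPKM + 0.1 scale, where the added constant pulls ratios of weakly expressed genes toward 0, and a gene was counted as higher or lower when the ratio was at least 1.5-fold. The verbs "rose" and "fell" refer to this size limit alone. The check of the labels by the targeted gene gave log2 ratios for *Isl1* of -1.73 at E11.5, from 133 FPKM in control to 40.006 FPKM in CKO ganglia, and -0.96 at E14.5, from 162 FPKM in wildtype to 83.1 FPKM in hypomorphic ganglia. Markers of sympathetic neurons were abundant in all 4 groups, with *Dbh* (dopamine beta-hydroxylase) between 543 and 608 FPKM and *Th* (tyrosine hydroxylase) between 145 and 280 FPKM.

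Neurexins are presynaptic membrane receptors that hold the sending side of a synapse to ligands on the receiving cell. Neuroligins are their classical postsynaptic ligands, with neuroligin 2 best known from inhibitory synapses and neuroligin 1 from excitatory ones. Neurexophilins are small secreted glycoproteins that bind alpha-neurexins. Cerebellins are secreted C1q-domain proteins that bridge neurexins to delta-type glutamate receptors, and the C1q-like proteins are relatives of the cerebellins that bind the adhesion receptor BAI3. Sympathetic neurons receive cholinergic synapses from preganglionic neurons of the spinal cord and send axons to visceral targets.

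The secreted ligands held the widest differences between genotypes among the 8 genes with a row. *Nxph1*, *Nxph4* and *C1ql1* were 2.41-fold to 2.76-fold higher in CKO than in control ganglia at E11.5, and each was at least 1.5-fold lower in hypomorphic than in wildtype ganglia at E14.5. *Cbln2* was 7.11-fold lower in CKO ganglia and 1.33-fold higher in hypomorphic ganglia. *Nrxn2*, *Nlgn2* and *Nlgn3* stayed within 1.5-fold at both stages, and *Nlgn1*, near the lower limit of the table, was 1.89-fold higher in CKO ganglia.

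Upstream sequence is shown for a gene of each kind, the widely differing *Nxph1* and the little differing *Nlgn2*. The sequences are the 250 bases before the RefSeq transcription start, from a RefSeq promoter table on GRCm38.p6, a different build from the mm9 coordinates given elsewhere, printed 5′ to 3′ on the gene's own strand with CpG dinucleotides in capitals. *Nxph1* lies on the plus strand (chr6:8949769-8950018) and *Nlgn2* on the minus strand (chr11:69837785-69838034).
Nxph1: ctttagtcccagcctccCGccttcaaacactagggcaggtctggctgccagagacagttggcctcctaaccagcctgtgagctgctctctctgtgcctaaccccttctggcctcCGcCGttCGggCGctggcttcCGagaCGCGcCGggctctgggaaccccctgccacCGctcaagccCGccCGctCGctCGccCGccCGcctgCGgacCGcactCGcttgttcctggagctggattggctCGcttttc
Nlgn2: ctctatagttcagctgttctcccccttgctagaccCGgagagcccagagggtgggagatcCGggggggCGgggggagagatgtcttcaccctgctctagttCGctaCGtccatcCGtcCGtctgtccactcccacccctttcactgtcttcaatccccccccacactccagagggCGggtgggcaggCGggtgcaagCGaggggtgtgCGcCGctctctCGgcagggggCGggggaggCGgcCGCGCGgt
Both stretches are CpG-rich, with 20 CpG in *Nxph1* and 18 in *Nlgn2* against a median of 6 over the 32851 promoters of the table, and their GC contents are 66.8% and 67.6%. Promoters were matched for 10 of the 18 genes of the 5 families, 4 of them among the 9 listed genes. Windows of 300 bases, 250 before to 50 after the start, were searched on both strands for CTAATG and TAATTA. These homeodomain-type motifs share the letters TAAT and are held by 7.36% and 5.29% of all promoters. The windows of *Nxph1* and *Nlgn2* gave 0 matches, and those of the other matched family genes gave none either. The *Nxph1* and *Nlgn2* windows have GC contents of 64% and 68.67%, against a median of 52.67% over all promoters. Motifs rich in A and T have less room in such windows, so no conclusion is drawn.

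Neurexophilins had the highest summed level of the 3 secreted families in every group but the hypomorphic one, where cerebellins were higher at 75.4 FPKM against 65.2 FPKM. *Nxph4* (mm9 chromosome 10, 126962529 to 126971615, minus strand) had 26.8 FPKM in control and 64.6 FPKM in CKO ganglia at E11.5, and 101 FPKM in wildtype and 63.8 FPKM in hypomorphic ganglia at E14.5. Both mutant values lay between the control levels of the 2 stages, as a description, since the tables were normalized separately. Its log2 ratio was 1.27 at E11.5 and -0.66 at E14.5. Wildtype *Nxph4* at E14.5 was above the wildtype level of 94.7% of all genes of that table.

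*Nxph1* (mm9 chromosome 6, 8898431 to 9199032, plus strand, a locus of 300.6 kb) was less abundant. It had 3.36 FPKM in control and 9.35 FPKM in CKO ganglia, and 8.45 FPKM in wildtype and 1.44 FPKM in hypomorphic ganglia. The CKO level was above its control and the hypomorphic level below its wildtype. Its log2 ratio was 1.45 at E11.5, exceeded by 4.13% of all genes, and -2.47 at E14.5, where 16 of 13413 genes had a lower ratio. The neurexophilin sum, to which *Nxph2* and *Nxph3* contributed no row, went from 30.2 to 73.9 FPKM between the E11.5 genotypes and from 109 to 65.2 FPKM between the E14.5 genotypes. *Nxph4* took 88.9% and 87.4% of the E11.5 sums and 92.3% and 97.8% of the E14.5 sums.

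**Figure D1:**
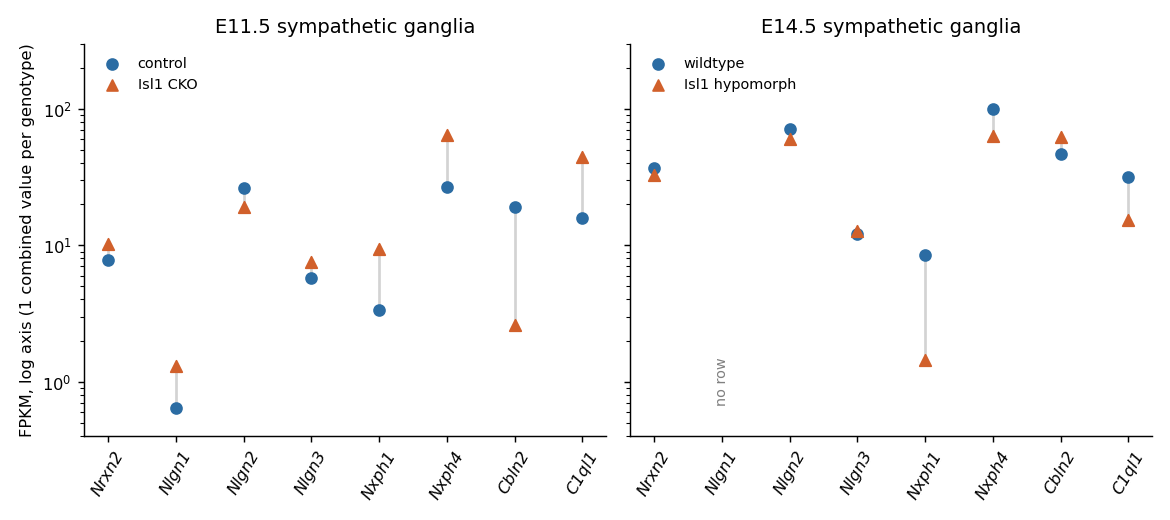
FPKM of the 8 genes with a row (log axis), 1 combined value per genotype, in E11.5 control (circles) and CKO (triangles) ganglia and in E14.5 wildtype (circles) and hypomorphic (triangles) ganglia. *Nxph1*, *Nxph4* and *C1ql1* have the triangle above the circle at E11.5 and below it at E14.5, while *Cbln2* has the widest gap at E11.5, from 19.2 to 2.61 FPKM.

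*C1ql1* (mm9 chromosome 11, 102800578 to 102808002, minus strand) had 15.9 FPKM in control and 44.1 FPKM in CKO ganglia at E11.5, and 31.7 FPKM in wildtype and 15.2 FPKM in hypomorphic ganglia at E14.5. It was 2.76-fold higher in CKO ganglia and 2.07-fold lower in hypomorphic ganglia, with log2 ratios of 1.46 and -1.05. At E14.5, 0.708% of all genes had a lower ratio. A lincRNA gene, *Gm17536*, is annotated on the opposite strand across this locus, and since the counting is not stated to use strand, reads of the pair cannot be told apart. Its paralog *C1ql3* was low throughout, at 1.54 and 3.28 FPKM at E11.5 and 1.2 and 1.37 FPKM at E14.5, with log2 ratios of 1.04 and 0.18. *C1ql2* and *C1ql4* had no row at either stage. *C1ql1* took between 91.2% and 96.4% of the C1q-like sum in the 4 groups.

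*Cbln2* (mm9 chromosome 18, 86880502 to 86887675, plus strand) went the opposite way at E11.5. It had 19.2 FPKM in control and 2.61 FPKM in CKO ganglia, a log2 ratio of -2.83, and 0.874% of all genes had a lower ratio. At E14.5 it had 46.8 FPKM in wildtype and 62.3 FPKM in hypomorphic ganglia, a log2 ratio of 0.41 that did not reach 1.5-fold. Its paralog *Cbln1* had 8.95 and 10.5 FPKM at E11.5 and 9.68 and 13.1 FPKM at E14.5, with log2 ratios of 0.23 and 0.43. *Cbln1* therefore made up 31.8% of the cerebellin sum in control and 80.1% in CKO ganglia, while its share at E14.5 was 17.1% in wildtype and 17.4% in hypomorphic ganglia. *Cbln3* and *Cbln4* had no row at either stage.

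**Figure D2:**
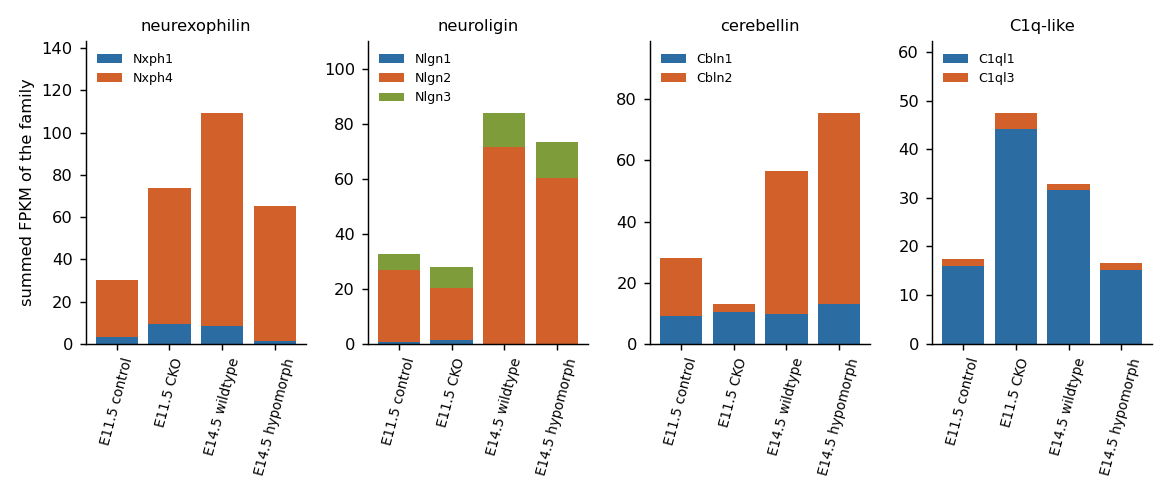
FPKM summed over the genes with a row of each of 4 families, stacked by gene, in the 4 groups (y axes start at 0 and differ between panels). The neurexophilin and C1q-like sums are higher in CKO and lower in hypomorphic ganglia than in their controls, and the cerebellin sum shows the loss of *Cbln2* in CKO ganglia, from 28.1 to 13.2 FPKM.

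The membrane partners varied less between genotypes. *Nrxn2* (mm9 chromosome 19, 6418731 to 6544169, plus strand) had 7.76 FPKM in control and 10.3 FPKM in CKO ganglia, and 36.9 FPKM in wildtype and 32.6 FPKM in hypomorphic ganglia. Its log2 ratios were 0.40 and -0.18. The locus overlaps *Slc22a12*, *Gm14964* and *Gm14967* on the other strand, whose reads may not be separated. These are totals of the gene, so that alpha- and beta-neurexin transcripts, which start from different promoters, are not separated.

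Among the neuroligins, *Nlgn2* (mm9 chromosome 11, 69636624 to 69651286, minus strand) was the most abundant in every group. It had 26.1 FPKM in control and 19.2 FPKM in CKO ganglia, and 71.7 FPKM in wildtype and 60.5 FPKM in hypomorphic ganglia, with log2 ratios of -0.45 and -0.25. *Nlgn3* (mm9 chromosome X, 98491178 to 98521302, plus strand, overlapping *Med12* on the same strand) had 5.77 and 7.56 FPKM at E11.5 and 12.1 and 12.8 FPKM at E14.5, with log2 ratios of 0.38 and 0.08. *Nlgn1* (mm9 chromosome 3, 25330733 to 26032656, minus strand) had 0.640 FPKM in control and 1.3 FPKM in CKO ganglia. The tables hold no gene under 1 FPKM in both genotypes, so *Nlgn1* entered the E11.5 table only through its CKO value and had to differ there. *Nlgn2* thus held 80.3% of the neuroligin sum in control, 68.4% in CKO, 85.5% in wildtype and 82.5% in hypomorphic ganglia.

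Counted by the 1.5-fold limit, 4 of the 8 genes were higher in CKO ganglia (*Nxph1*, *Nxph4*, *C1ql1* and *Nlgn1*), 3 without *Nlgn1*, and 1 was lower (*Cbln2*), where 18.9% of all 13506 genes were higher and 12.9% lower. The E11.5 table is thus one in which wide ratios were common. At E14.5, 3 of the 7 genes were lower (*Nxph1*, *Nxph4* and *C1ql1*) and 0 were higher, where 2.12% of all 13413 genes were lower and 2.89% higher. The median log2 ratio was 0.66 over the 8 genes at E11.5 against 0.05 over all genes, and -0.25 over the 7 genes at E14.5 against 0.003 over all genes. Since the 9 genes were listed with results of these data known, these counts describe them and support no statement on the families.

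The spread of all genes at a like level gives a scale for single ratios, though it is a spread between genes and not between libraries. At E11.5, from the 5th to the 95th percentile, log2 ratios ran from -0.98 to 1.04 for genes with a mean of 5 to 20 FPKM and from -0.84 to 0.95 for 20 to 100 FPKM. *Nxph1*, *Nxph4*, *C1ql1* and *Cbln2* lay outside these ranges, and *Nrxn2*, *Nlgn2* and *Nlgn3* inside them. At E14.5 the same ranges were narrower, -0.31 to 0.41 and -0.33 to 0.29. There *Nxph1*, with its mean of under 5 FPKM and a range of -0.50 to 0.61, *Nxph4* and *C1ql1* lay below, *Cbln2* above, and *Nrxn2*, *Nlgn2* and *Nlgn3* inside.

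Several other features of the E11.5 libraries also differed between genotypes. Of 12 markers of neural crest and glia, 10 were at least 1.5-fold higher in CKO ganglia and their summed level was 397 FPKM in control and 766 FPKM in CKO ganglia. Of 12 pan-neuronal markers, 5 were lower and 0 higher, with sums of 4027 and 2662 FPKM. Of 9 sympathetic neuron markers 3 were lower and 0 higher, with sums of 1791 and 1508 FPKM. Mesenchyme markers summed to 763 and 1300 FPKM (6 of 9 higher) and macrophage markers to 53.9 and 121 FPKM (8 of 9 higher). Erythroid markers held 2.29% of the FPKM sum of control ganglia and 11.2% of that of CKO ganglia, with 10 of 11 higher. The exception, the embryonic globin gene *Hbb-y*, made up 69.4% of the control erythroid sum at 7552 FPKM and is listed at 0 in CKO ganglia, and without it the shares were 0.700% and 11.2%. The 3 trophoblast and decidua markers with a row, of 9 listed, summed to 0.497 and 67.3 FPKM, with the other 6 having no row. Sensory neuron markers summed to 11.5 and 20.5 FPKM (4 of 6 with a row higher) and endothelial markers to 70.8 and 91.9 FPKM (1 of 8 higher). Chromaffin markers summed to 643 and 895 FPKM (2 of 4 higher). The chromaffin sums were mostly *Cartpt*, at 638 and 881 FPKM and within 1.5-fold, while *Pnmt* was at 1.29 and 0.949 FPKM. Of 8 spinal cord markers 1 had a row, *Foxa2*, at 0.017 FPKM in control and 1.34 FPKM in CKO ganglia. The part of these in the ratios of the 9 genes was not tested, and in bulk tissue fewer cells of a type and less RNA per cell cannot be told apart. Scaling FPKM to the same sum without erythroid markers, *Hbb-y* included, shifted the median log2 ratio of all genes to -0.18. On that scale the log2 ratios at E11.5 were 1.22 for *Nxph1*, 1.03 for *Nxph4*, 1.23 for *C1ql1*, -3.06 for *Cbln2* and -0.68 for *Nlgn2*, which then passed 1.5-fold, while *Nrxn2* and *Nlgn3* were at 0.17 and 0.15, above that median.

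At E14.5 fewer markers were past 1.5-fold between genotypes. Neural crest and glia markers summed to 731 FPKM in wildtype and 751 FPKM in hypomorphic ganglia, with 0 of 12 past 1.5-fold. Pan-neuronal markers summed to 6489 and 6188 FPKM and sympathetic neuron markers to 2862 and 2550 FPKM, with 1 of 12 and 1 of 9 lower. Macrophage markers summed to 59.99 and 71.1 FPKM, mesenchyme markers to 1572 and 1751 FPKM and endothelial markers to 90.9 and 128 FPKM, with 0 of 9, 0 of 9 and 1 of 8 higher. Chromaffin markers summed to 211 and 329 FPKM (1 of 3 with a row higher) and sensory neuron markers to 13.998 and 17.8 FPKM (1 of 4 higher). The chromaffin sums were mostly *Cartpt*, the 1 higher gene, at 200 and 320 FPKM, while *Pnmt* was at 5.04 and 3.70 FPKM. Erythroid markers took 1.26% and 1.55% of all FPKM, and trophoblast and spinal cord markers had no row. The part of all these markers in the ratios of the 9 genes was not tested.

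**Figure D3:**
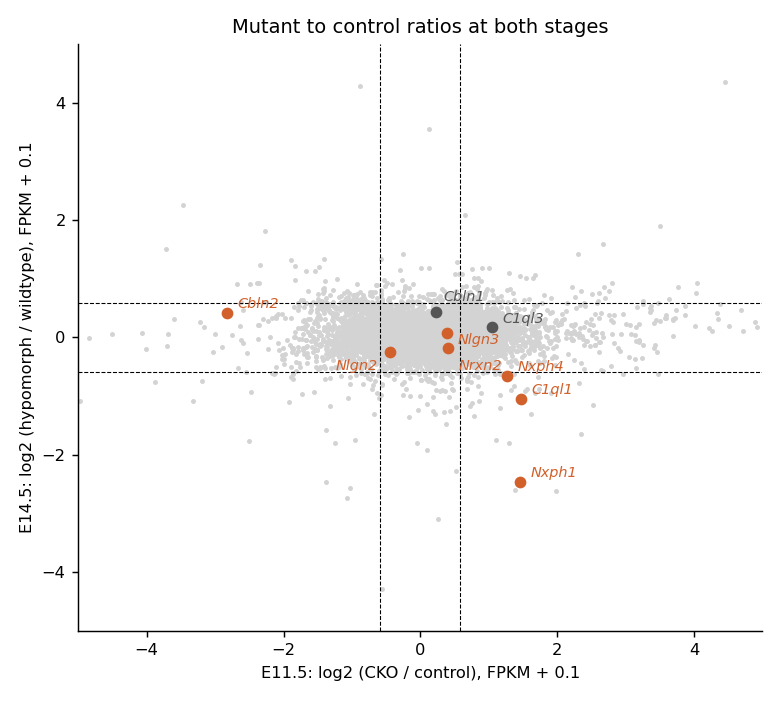
Log2 ratio of CKO to control at E11.5 (x axis) against log2 ratio of hypomorph to wildtype at E14.5 (y axis), on the FPKM + 0.1 scale, for 12638 of the 12727 genes in both tables (grey, the other 89 lie outside the axes), listed genes in orange and paralogs in dark grey. Dashed lines mark 1.5-fold, and *Nxph1*, *Nxph4* and *C1ql1* sit in the lower right, where 0.409% of genes lie.

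The direction of the difference turned between the stages for *Nxph1*, *Nxph4* and *C1ql1*. Among the 12727 genes in both tables, 52 genes (0.409%) were at least 1.5-fold higher in CKO ganglia at E11.5 and at least 1.5-fold lower in hypomorphic ganglia at E14.5, and these 3 were among them. The reverse pattern was held by 110 genes (0.864%) and by 0 of the 7 listed genes in both tables, *Cbln2* having missed the limit at E14.5. The log2 ratio at E14.5 minus that at E11.5 was -3.92 for *Nxph1*, -2.52 for *C1ql1*, -1.92 for *Nxph4* and 3.24 for *Cbln2*. It was -0.58 for *Nrxn2*, -0.31 for *Nlgn3* and 0.20 for *Nlgn2*. The stages differ in the *Isl1* allele, the Cre driver, the reporter and the dissection as well as in age, so age cannot be told apart from these, and the difference between the stages was not tested. The other genes whose ratios were at least as far out as those of *Nxph1* at both stages were 1 in number (*Mir7082*), and for *C1ql1* they were 5 (*Lrrn4*, *Mir425*, *Mir7006*, *Mir7082* and *Snord15b*), named after their values were seen. For *Nxph4* they were 19, *Nxph1* and *C1ql1* among them, and for *Cbln2*, in the reverse pattern, 22.

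Nearness of pattern was measured as the Euclidean distance between pairs of log2 ratios, 1 for each stage, over 9270 genes with 5 FPKM or more in a genotype of each table. It rests on 2 ratios alone. The nearest genes to *Nxph4* were *Ackr1*, *Stom* and *Olfm2*, at distances of 0.03 to 0.11. *Olfm2*, an olfactomedin gene, had 15.0 and 39.0 FPKM at E11.5 and 74.6 and 48.5 FPKM at E14.5. The nearest to *C1ql1* were *Gdf1*, *Ablim1* and *Chgb*, at 0.15 to 0.21, and *Chgb*, which encodes the granule protein chromogranin B, had 69.5 and 174 FPKM at E11.5 and 314 and 169 FPKM at E14.5. *Nxph1* had no gene within a distance of 1, with *Lrrn4* at 1.17, *C1ql1* at 1.42 and *Chodl* at 1.52. The nearest to *Cbln2* were *Ccnd1*, *Pou2f2* and *Plcb4*, at 0.37 to 0.40, and *Ccnd1*, the cyclin D1 gene, had 831 and 123 FPKM at E11.5 and 782 and 809 FPKM at E14.5.

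Levels in control ganglia were higher at the later stage for all 7 listed genes in both tables. The tables were normalized separately, so the log2 ratio of E14.5 wildtype to E11.5 control was centred on its median over the 12727 shared genes and is a description only. It was 2.0 for *Nrxn2*, 1.67 for *Nxph4*, 1.22 for *Nlgn2*, 1.07 for *Nxph1*, 1.05 for *Cbln2*, 0.82 for *Nlgn3* and 0.75 for *C1ql1*. All 7 were past 1.5-fold upward, as were 19.2% of the shared genes, with 19.5% past it downward. For *Nrxn2*, 98.5% of the shared genes had a lower ratio. The paralog *Cbln1* was at -0.12 and *C1ql3* at -0.57. The listed order by FPKM was led by *Nxph4*, *Nlgn2* and *Cbln2* in both sets of control ganglia, followed by *C1ql1*, *Nrxn2*, *Nlgn3* and *Nxph1* at E11.5 and by *Nrxn2*, *C1ql1*, *Nlgn3* and *Nxph1* at E14.5. Neighbours such as *Nxph4* and *Nlgn2* at E11.5, at 26.8 and 26.1 FPKM, cannot be ranked without a spread between libraries.

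**Figure D4:**
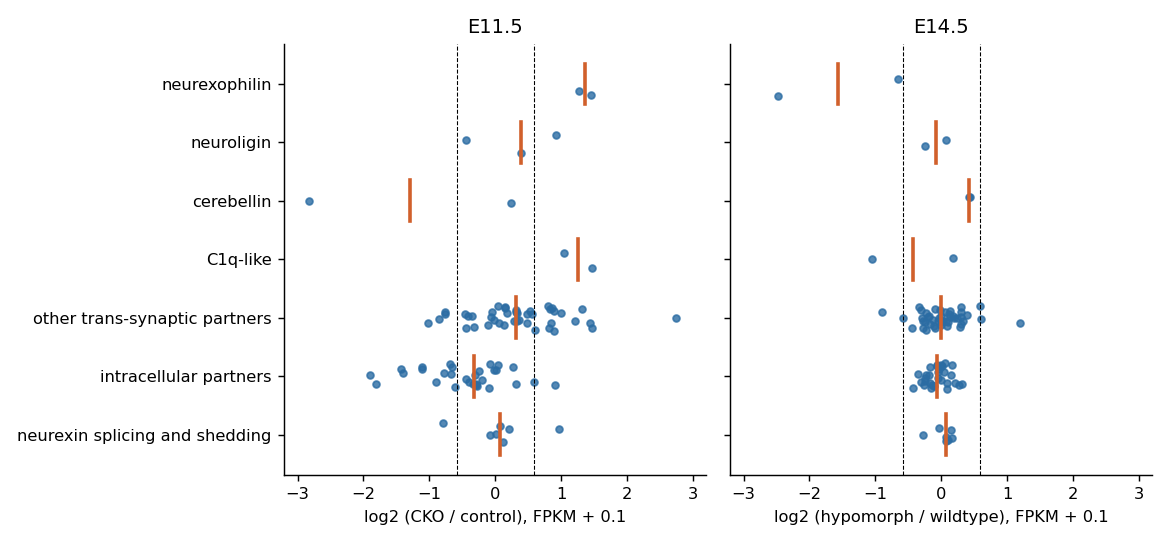
Log2 ratios (FPKM + 0.1) of the genes of the wider synaptic adhesion list with a row, by class without the neurexins, at E11.5 (CKO over control) and E14.5 (hypomorph over wildtype). Points are genes, orange bars class medians and dashed lines 1.5-fold. At E14.5 the neurexophilins, *C1ql1* and *Flrt1* (-0.90) lie past 1.5-fold downward. *Lrrc4c* (1.18) and *Lrfn2* (0.60) lie past it upward, and the other genes shown are within 1.5-fold.

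A wider list of 107 genes of the same synaptic adhesion system placed these values among their partners. At E11.5, 91 had a row, of which 22 were higher and 18 lower, with a median log2 ratio of 0.04 against 0.05 over all genes, of which 18.9% were higher and 12.9% lower. Scaled without erythroid markers, 18 of the 91 were higher and 25 lower, beside 1648 higher and 3036 lower of all 13506 genes on that scale. At E14.5, 92 had a row, of which 2 were higher and 4 lower, with a median of -0.02, beside 2.89% and 2.12% of all genes. Without the 9 listed genes, 18 were higher and 17 lower of 83 at E11.5, and 2 were higher and 1 lower of 85 at E14.5. Intracellular partners were the class with the most lower genes at E11.5, 12 of 30 lower and 2 higher (*Dlg2* and *Apba3*). Their median was -0.33, beside 12.9% lower and 18.9% higher over all genes. This class mixes proteins that bind the tails of neurexins or neuroligins with others that do not, such as those of the *Dlgap*, *Shank* and *Ppfia* genes. Scaled without erythroid markers, 14 were lower and 1 higher, beside 3036 lower and 1648 higher of all 13506 genes. The class median was then -0.56 against -0.18 over all genes. At E14.5, 0 of 30 were past 1.5-fold.

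Among these intracellular partners, *Lin7a*, which encodes a PDZ protein of the CASK complex at neurexin tails, had 12.3 FPKM in control and 3.23 FPKM in CKO ganglia. *Ppfia2*, the gene of a liprin-alpha of the presynaptic active zone, had 10.7 and 2.96 FPKM. *Dlgap2*, a postsynaptic scaffold gene, had 6.68 and 2.46 FPKM, and *Apba2*, which encodes the neurexin-binding adaptor MINT2, had 35.5 and 16.4 FPKM. All 4 were at least 1.5-fold lower in CKO ganglia. At E14.5 they were within 1.5-fold, at log2 ratios of -0.14, -0.42, -0.07 and -0.07 in the same order.

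Of the other surface partners, 14 of 43 were higher and 4 lower at E11.5, with a median of 0.32, beside 18.9% higher and 12.9% lower over all genes. Scaled without erythroid markers, 11 were higher and 7 lower, beside 1648 higher and 3036 lower of all 13506 genes. The class median was then 0.09 against -0.18 over all genes. At E14.5, 2 of 45 were higher and 1 lower, beside 2.89% higher and 2.12% lower over all genes. *Lrrtm1*, which encodes a leucine-rich repeat ligand of neurexins, had 4.22 FPKM in control and 11.8 FPKM in CKO ganglia, and *Slitrk5*, of a leucine-rich family that binds presynaptic receptor phosphatases, had 2.70 and 6.38 FPKM. *Fam19a1*, the gene of a secreted TAFA protein, had 0.671 and 5.05 FPKM and no row at E14.5. Of the 4 lower genes, *Lphn1*, which encodes a latrophilin, fell from 28.8 to 14.2 FPKM, and the others were *Ptprs*, *Lrrc4b* and *Mdga1*. At E14.5, *Lrrc4c*, which encodes the netrin-G ligand NGL-1, rose from 2.90 to 6.72 FPKM. The other genes of this class past 1.5-fold were low, with *Lrfn2* at 0.808 and 1.28 FPKM and *Flrt1* at 4.28 and 2.25 FPKM. Of the 3 wider-list genes with lower values past 1.5-fold at 5 FPKM or more, all were listed ones, *Nxph1*, *C1ql1* and *Nxph4*. *Flrt1*, left out by that level, had a log2 ratio of -0.90, lower than that of *Nxph4*. The listed genes were chosen with results of these data known, so this is a description only.

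Receptors of the secreted ligands were compared as well, chosen after their values were seen. *Bai3*, the receptor of C1q-like proteins, had 15.7 and 12.3 FPKM at E11.5 and 27.9 and 22.7 FPKM at E14.5, with log2 ratios of -0.35 and -0.30. *Grid1*, a delta-type glutamate receptor gene, had a row at E14.5 only, with 1.69 and 1.32 FPKM. Of 7 genes with a row for splicing and shedding of neurexins and neuroligins, 1 was higher and 1 lower at E11.5. At E14.5 0 were past 1.5-fold. Over all genes, 18.9% were higher and 12.9% lower at E11.5, and 2.89% and 2.12% at E14.5, so these counts do not set the class apart. The higher gene was *Psen2*, a presenilin gene, at 4.51 and 8.85 FPKM. The lower gene, *Khdrbs3*, which encodes the neurexin splicing regulator SLM2, had 41.6 and 24.0 FPKM at E11.5 and 48.2 and 53.4 FPKM at E14.5.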

How the data were processed

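Sympathetic ganglia were profiled by polyA RNA-seq in 4 groups of 2 libraries. Per the study's methods, reads were aligned to mm9 with TopHat and quantified with cuffdiff. The submitters' processing notes instead name TopHat 1.3.1, Cuffdiff 1.3.0 and the fly build dm3, which does not suit mouse genes. The deposited values are FPKM, combined by the authors over both libraries of a genotype, in 1 table per stage, each normalized on its own, with no gene under 1 FPKM in both genotypes. The tables also hold the authors' log2 fold changes and p-values, which were not used.

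Log2 ratios of FPKM + 0.1 were computed over all genes and counted past 1.5-fold. No value for a single library was at hand, so no test, interval or depth was computed here. Genes named beyond the 9 were paralogs, genes of the wider list past 1.5-fold at both stages or among up to 6 with the widest ratios past 1.5-fold per direction and stage at 5 FPKM or more, and the 3 nearest in pattern to *Nxph1*, *Nxph4*, *C1ql1* and *Cbln2*. Some genes of the wider list are not reported here by name. Those marked as chosen after their values were seen fall outside this rule, as do markers and genes beside a count. The 9 genes and all lists were chosen with earlier results of these data known. Positions are from the GENCODE annotation of mm9 (NCBIM37). Alternatives were pseudocounts of 1 and 0.01, FPKM limits of 5 in either or 1 in both genotypes, median centring, scaling without erythroid markers, and limits of 2-fold and 1.2-fold. Scaling of the classes of the wider list and the erythroid share without *Hbb-y* were added after seeing the data. Steps were tested on simulated data. Python 3.11.15, numpy 2.4.6, pandas 2.3.3 and matplotlib 3.10.9 were used.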

Additional observations from a re-analysis of the deposited data

Results flagged for a closer look

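For 3 genes the difference between mutant and control ganglia had opposite directions at the 2 stages, past 1.5-fold at each. The log2 ratio at E14.5 minus the log2 ratio at E11.5 was -3.92 for *Nxph1*, -2.52 for *C1ql1* and -1.92 for *Nxph4*. Each stage has 1 combined value per genotype, and the difference was not tested. *Nxph1* had its higher value in CKO ganglia at E11.5 (9.35 against 3.36 FPKM) and its lower value in hypomorphic ganglia at E14.5 (1.44 against 8.45 FPKM).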

How the results depend on the processing

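No paired analysis was possible because the deposited columns hold 1 combined value per genotype, which also prevented leaving out a replicate. All 88 alternative values of single listed genes kept their direction and moved by less than 0.58 on the log2 scale. For the FPKM limits this was fixed in advance, since a limit only drops genes and leaves each ratio unchanged. Median centring shifts all ratios of a stage by the same small constant. The 88 values are thus not all separate checks. No value past 1.5-fold turned its direction under an alternative. The 255 alternative values in all also include counts, class medians and values within 1.5-fold, for which no such turn could be recorded. The count of listed genes lower at E11.5 went from 1 to 2 after scaling without erythroid markers and at a limit of 1.2-fold, both through *Nlgn2*, and the count higher at E14.5 from 0 to 1 at 1.2-fold, through *Cbln2*. The 4 genes higher at E11.5 became 3, without *Nlgn1*, with a pseudocount of 1, under either stricter FPKM limit and at 2-fold, and 6 at 1.2-fold. For the wider list, a limit of 2-fold left 8 lower and 9 higher genes at E11.5 and 2 lower and 1 higher at E14.5, and 1.2-fold gave 32 lower and 35 higher, and 16 lower and 13 higher. Its 2 higher genes at E14.5 became 1 with a pseudocount of 1, with 5 FPKM or more in either genotype, or with 1 FPKM or more in both genotypes. With a pseudocount of 1 the difference between stages for *Nxph1* was -3.2, since the pseudocount shrinks ratios of low values. Over all genes, scaling without erythroid markers changed the counts at E11.5 from 1746 lower and 2552 higher to 3036 lower and 1648 higher. A limit of 2-fold left 652 lower and 1137 higher genes at E11.5 and 105 lower and 131 higher at E14.5, and 1.2-fold gave 3711 lower and 4697 higher, and 1209 lower and 1638 higher. The lower and higher counts at E14.5, 284 and 387, became 188 and 217 with a pseudocount of 1, and 173 and 225 at 5 FPKM or more in either genotype, which also left 1556 genes higher at E11.5. At 1 FPKM or more in both genotypes 244 genes were higher at E14.5. Without read numbers, the precision of low values such as those of *Nlgn1* is unknown.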
